A study of Mus musculus with 8 samples.

Results

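The genes of the mitochondrial protein import machinery were followed in whole hearts of mice with a cardiac-specific knockout of Yy1, the gene for the transcription factor Yin-Yang 1 (YY1). The members were every gene symbol in the deposited count tables that begins with Timm or Tomm and a digit, together with 14 named genes (Grpel1, Grpel2, Samm50, Mtx1, Mtx2, Mtx3, Chchd4, Gfer, Pmpca, Pmpcb, Mipep, Oxa1l, Immp1l and Immp2l). This gave 39 of 24411 symbols. The choice went by name, with earlier results of these data known. The letters also take in Tomm6os, a transcript annotated antisense to Tomm6, and Tomm34, a cytosolic cochaperone that is no subunit of the outer membrane complex. Of the 39 members, 37 passed the filter on low counts and were tested, and Timm8a2 and Tomm20l did not pass it.

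The hearts came from 8 C57BL/6 mice taken 1 week after transverse aortic constriction, which loads the left ventricle with pressure by narrowing the vessel it pumps into. The control group was 4 MerCreMer mice, which carry a Cre recombinase fused to mutated oestrogen receptor domains, so that it acts when a ligand is given. The other group was 4 mice with a cardiac-specific knockout of Yy1 (YY1 KO), labelled by the deletion alone. The labels give neither the promoter of the transgene, nor the ligand and its timing, nor the age of the mice, and unoperated hearts were not analysed here. All values are therefore from pressure-loaded hearts, and each comparison is between the 2 genotypes under that load.

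The libraries of polyadenylated RNA had 23869112 to 23966753 reads each, and 14582605 to 16000455 of these counted toward genes. Yy1 itself stood at 36.1 ± 1.58 CPM (gene reads scaled to the size of the library; SD, n = 4) in controls and at 21.04 ± 2.55 CPM in knockouts, a log2 fold change of −0.78 ± 0.10 (SE; quasi-likelihood test in edgeR, adjusted p = 0.000769). The series describes all mice as male, but in each group libraries 2 and 3 had Y-linked transcripts and almost no Xist, and libraries 1 and 4 had Xist and almost no Y-linked reads. Both kinds occurred equally in both groups. The genotype effect was not called different between the 2 kinds for any of 13506 genes in edgeR, with 702 at an unadjusted p under 0.05, 4 of them among the 37 members, and a lowest adjusted p of 0.812. With a term for this split 13 members were lower and 5 higher, Tomm6os counted among the higher. The counts over all genes with this term are not given here. In the 4 libraries with Y-linked transcripts alone, 8 members were lower and 2 higher, where 1730 genes were higher in all. In the 4 libraries with Xist alone, where edgeR called 0 genes of any kind, 0 members were called.

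Most mitochondrial proteins are encoded in the nucleus, made in the cytosol and carried into the organelle after synthesis. They enter through the TOM complex of the outer membrane and are then sorted, to the outer membrane by the SAM complex, to the intermembrane space by a disulfide relay, to the inner membrane by the TIM22 complex, or to the matrix by the TIM23 complex and its motor. In the matrix, peptidases remove the targeting sequence and chaperones fold the protein. Heart muscle is rich in mitochondria, and the respiratory chain and fuel-oxidising enzymes of the cardiomyocyte depend on this route.

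Among the 37 tested members 14 were lower in YY1 KO hearts and 5 higher at an adjusted p under 0.05 (edgeR, adjusted over all genes), and 18 did not pass. One of the higher calls, Tomm6os, met the filter only through its level in knockouts, so it is described by its values alone and set aside from the shares that follow. Of the other 36 members 14 were lower (38.9%), where 17.3% of all tested genes were lower, and 4 were higher (11.1%), where 21.6% of all tested genes were higher. The median log2 fold change of these 36 was −0.15, with quartiles of −0.45 and 0.06, against 0.01 over all genes. Values of the groups did not overlap, in the direction of lower, for 13 members (16.5% of all tested genes), and in the direction of higher for 4 (21.8% of all tested genes). The lower calls lay between −1.21 and −0.31 on the log2 scale, and 1 of them, Timm21, was at least a 2-fold change. The other higher calls lay between 0.31 for Timm9 and 1.02 for Mtx1, and Mtx1 alone of these 4 reached 2-fold. With Tomm6os counted and any 1 library left out, 10 to 14 members were lower and 3 to 5 higher, the 3 without control 4 or without knockout 3. Over all genes these fits called 1668 to 2439 lower and 2192 to 2905 higher. Below, values after ± are standard errors for log2 fold changes and SDs for CPM, and positions are those of mm10.

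By step of import, the lower calls fell mainly on the inner membrane and matrix genes. Counts by step are to be read beside 17.3% lower and 21.6% higher among all tested genes, and each step holds few genes. The 3 members that belong to the motor (Timm44, Grpel1 and Grpel2), 3 of 5 TIM23 genes, 3 of 5 peptidase genes and 1 of 2 TIM22 genes were lower, and 0 members of these 4 steps were higher. The inner membrane insertase gene Oxa1l was not called. In the intermembrane space 0 of 7 tested genes were lower and 1 was higher. Of the 8 tested genes of the TOM complex 3 were lower and 1, Tomm22, was higher, with Tomm34 and Tomm6os counted apart, and the SAM complex 1 lower and 1 higher of 4. Taken as a sum, member transcripts held 0.265, 0.265, 0.245 and 0.239% of gene reads in controls 1 to 4. In knockouts 1 to 4 they held 0.226, 0.218, 0.224 and 0.242%, and the ranges of the groups overlap.

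**Figure D1:**
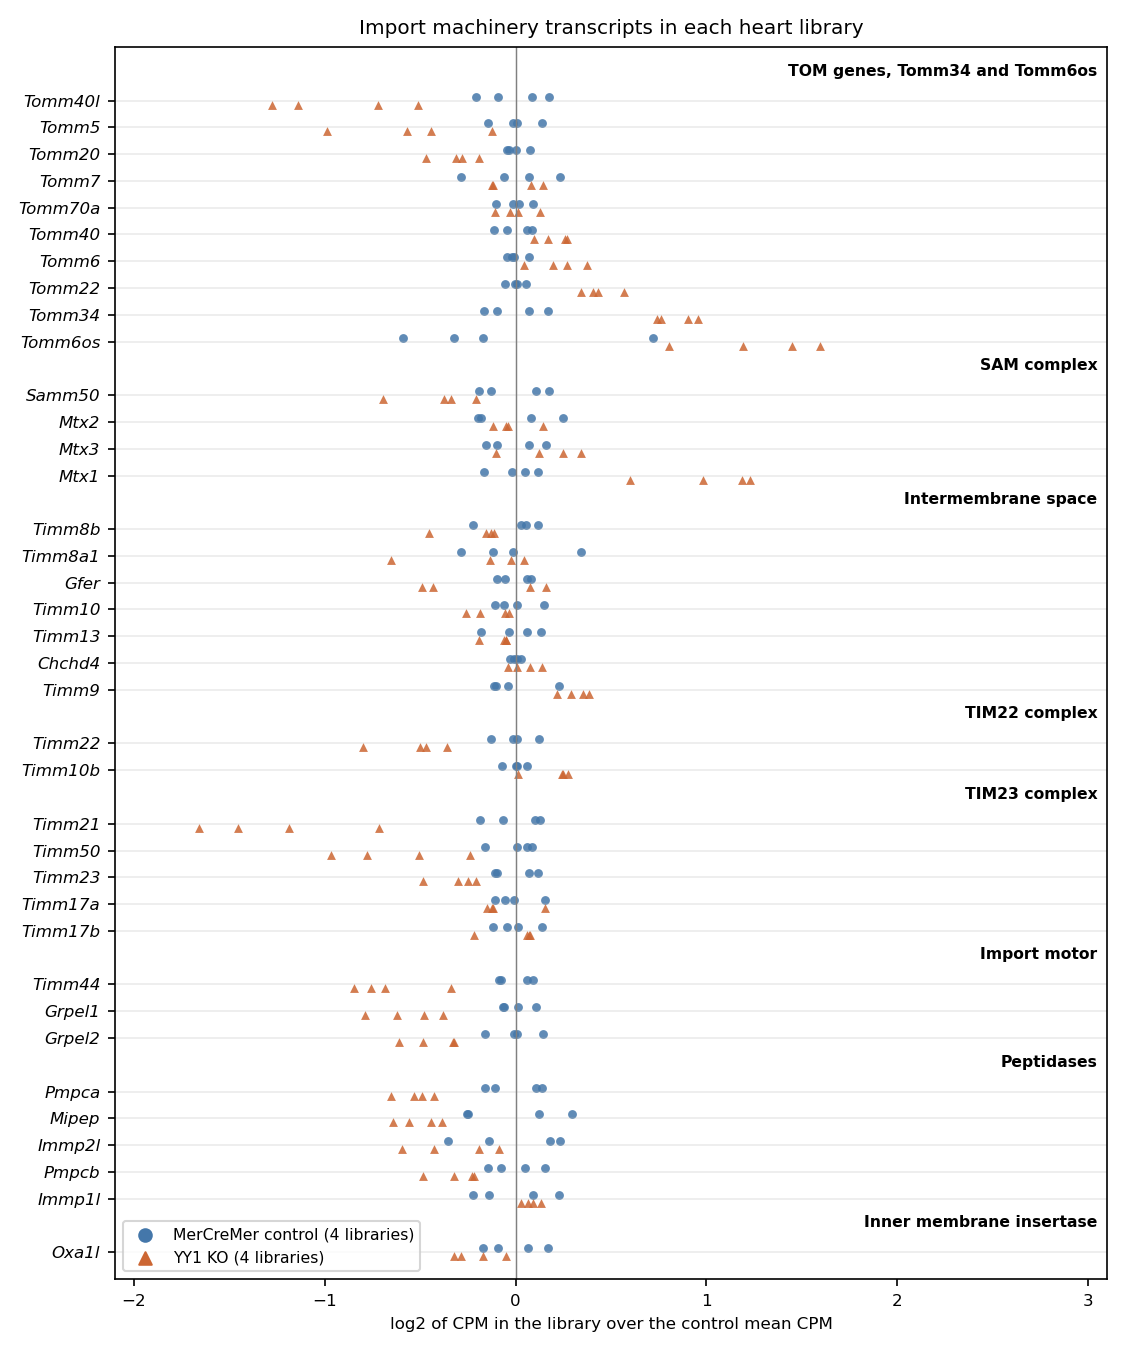
Level of each of the 37 tested import genes in every library, as log2 of its CPM over the control mean (x axis), ordered by step of import and by fold change; circles are the 4 controls and triangles the 4 YY1 KO hearts. All YY1 KO triangles of Timm44, Grpel1 and Grpel2, the motor genes among the members, lie to the left of all control circles, and all those of Mtx1, Tomm34 and Tomm22 lie to the right.

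Markers of several cell types also differed between the groups, to be read beside 17.3% lower and 21.6% higher among all tested genes. Of 10 cardiomyocyte markers 4 were lower and 0 higher, with a summed level of 91860 to 121200 CPM in controls and 56010 to 80810 CPM in knockouts, so that the defining genes of heart muscle were abundant in all 8 libraries. Endothelial markers were lower for 6 of 8 (1673 to 2337 against 1153 to 1449 CPM) and pericyte and smooth muscle markers for 3 of 8 (1121 to 1354 against 770 to 950 CPM). Of 8 fibroblast markers 1 was higher, and of 7 tested macrophage markers 0 were called. Of 4 brown fat markers 1 was tested, Cidea, and was higher (log2 fold change 0.79, edgeR adjusted p = 0.0154), and the summed level of the 4 was 32.1 to 36.6 CPM in controls and 41.2 to 82.2 CPM in knockouts. The globin genes Hba-a1, Hba-a2, Hbb-bs and Hbb-bt and the skeletal muscle genes Myh4 and Myod1 were listed at 0 in every library. Of all 5 skeletal muscle markers 1 was tested and was not called. Their summed level was 137.8 to 5309 CPM in controls and 995.9 to 2252 CPM in knockouts. In whole heart, fewer cells of a type and less RNA per cell cannot be told apart, and the part of these marker differences in the import values was not tested.

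Promoter sequence was examined because YY1 is itself a DNA-binding factor whose sites often sit just downstream of the start of transcription. RefSeq promoter windows (GRCm38.p6, 250 bases before to 50 bases after the start) were at hand for 35 of the 39 members. A gene can have more than 1 window, and a match in any of them counted for the gene. The YY1 core motif CCATNTT was read on either strand (AANATGG on the other). It occurred in 10 of these 35 members, or 28.6%. The shares were 17.3% of the 10249 genes tested in heart that have a window and 18.2% of all 27025 genes with one. In 7 members the match lay after the start, against 6.0% of the heart genes. The longer form AANATGGCG, which contains the core, occurred in 7 of the 35 members (against 5.65% of heart genes). In 6 of them it lay after the start (3.2% of heart genes). The 7 windows with the match after the start are shown, 30 bases each, with the matched letters in capitals. Counting the start of transcription as base 1, the core match began between bases 10 and 17.
Mtx1 (chr3:89213876-89213905, minus strand): agagcgtacAAGATGGCGgcgcccatggag
Timm50 (chr7:28312015-28312044, minus strand): cgtcagcgcAAGATGGCGgcctcggcggct
Mtx3 (chr13:92844775-92844804, plus strand): agccccggcAAGATGGCGgcccccatggag
Oxa1l (chr14:54360843-54360872, plus strand): cttcccggcAAGATGGCGaggaatttagtg
Samm50 (chr15:84192240-84192269, plus strand): aggtggtacAACATGGCGgcgctcggcacg
Timm44 (chr8:4275870-4275899, minus strand): ggctcttccAACATGGCGgcggcagctctg
Timm17a (chr1:135313702-135313731, minus strand): gttggagccAAGATGGaggaatacgcgaga
In 5 of these windows (Timm50, Mtx3, Oxa1l, Timm44 and Timm17a) the ATG inside the match is the annotated start codon. Of the 7 genes, Timm50, Timm44 and Samm50 were lower in YY1 KO hearts, Mtx1 was higher, and Mtx3, Oxa1l and Timm17a did not pass the test. A match describes letters only and shows no binding.

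Motifs of other factors that act on nuclear genes for mitochondria were searched in the same windows on both strands. The ETS-family motif CCGGAAG occurred in 14 of 35 members (40.0%), against 19.2% of heart genes. It is shown for 5 members with a called difference, since it sits close before the start in genes that moved both ways.
Tomm22 (chr15:79670813-79670842, plus strand): ccggctcgCTTCCGGAAGacgctctgtcca
Tomm34 (chr2:164071190-164071219, minus strand): ttgagcccactCTTCCGGccgcttagctcc
Pmpca (chr2:26389284-26389313, plus strand): ggctcggcgggCCGGAAGccagcgccgaac
Pmpcb (chr5:21737130-21737159, plus strand): cctggagtcatgacCCGGAAGtacatctcc
Timm23 (chr14:32201920-32201949, minus strand): cgcgcttcccaCTTCCGGgccgcacacagc
In the Tomm22 window matches on the 2 strands overlap. Tomm22 and Tomm34 were higher in YY1 KO hearts, and Pmpca, Pmpcb and Timm23 were lower. The estrogen-related receptor motif AAGGTCA occurred in 3 members (Timm44, Timm8b and Timm23; 8.57%, against 3.9% of heart genes). The NRF1 motif GCGCATGCG occurred in 1 member (Timm13; 2.86%, against 4.03% of heart genes). The ATF4 motif TGATGNAAT occurred in 0 of 35 members (0.517% of heart genes), which says only that these letters are not in their windows.

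At the outer membrane, 1 of the 2 genes for the import pore was called lower and the other was not called. Tomm40 encodes the barrel through which nearly all precursors pass, and Tomm40l a close relative of it. Tomm40l (chromosome 1, 171216011 to 171222514, minus strand) was at 80.3, 75.4, 61.5 and 66.7 CPM in controls 1 to 4 and at 49.7, 29.3, 32.2 and 43.1 CPM in knockouts 1 to 4. Every knockout lay below every control, and the log2 fold change was −0.88 ± 0.17 (edgeR adjusted p = 0.00416). Its exons overlap those of Nr1i3 on the opposite strand, and with counts of its own strand the log2 fold change was the same to 2 decimals, −0.88. Tomm40 itself was at 95.1, 96.5, 88.4 and 84.2 CPM in controls and 97.3, 102, 109 and 109.9 CPM in knockouts, all knockouts above all controls, but it did not pass (0.20 ± 0.08, edgeR adjusted p = 0.0755).

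Among the receptors of the outer membrane, Tomm20 was lower and Tomm22 higher. Tomm20, the receptor for presequences, had 75.7, 79.5, 73.7 and 73.2 CPM in controls and 60.9, 66.1, 54.6 and 62.2 CPM in knockouts. All knockouts were below all controls (log2 fold change −0.31 ± 0.08, edgeR adjusted p = 0.0143). Tomm22, the central receptor that ties the others to the pore, had 75.5, 76.04, 78.6 and 72.8 CPM in controls and 100.4, 95.96, 112 and 102 CPM in knockouts. Its groups did not overlap and the log2 fold change was 0.44 ± 0.08 (edgeR adjusted p = 0.00234). Tomm70a, the receptor for carrier precursors delivered by chaperones, ranged from 94.5 to 108 CPM in controls and from 94.2 to 111 CPM in knockouts, with a log2 fold change of 0.00 ± 0.08 (SE).

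Of the small TOM subunits, Tomm5 was called lower. Its level was 74.9, 81.9, 73.7 and 67.2 CPM in controls and 54.8, 37.5, 50.2 and 68.2 CPM in knockouts, so knockout 4 lay within the control range (log2 fold change −0.50 ± 0.16, edgeR adjusted p = 0.0367). It was −0.85 in the libraries with Y-linked transcripts and −0.21 in those with Xist (edgeR adjusted p = 0.0199 and 0.470), a difference that edgeR did not call. In edgeR the call of Tomm5 did not survive leaving out control 1 (adjusted p = 0.055), 2 (0.0874) or 3 (0.0602) or knockout 1 (0.0649) or 3 (0.0944), or scaling by library size alone (0.0936). Tomm7, which modulates the assembly of the complex, was at 49.3 ± 7.38 and 49.3 ± 4.66 CPM (SD, n = 4). Tomm6 was at 8.08 ± 0.277 CPM in controls and 9.44 ± 0.897 CPM in knockouts and did not pass (log2 fold change 0.23 ± 0.12, edgeR adjusted p = 0.154). Reads in stretches shared with genes on the other strand are not counted when strand is ignored, and Tomm6 shares exons with Tomm6os and Usp49. Counts of its own strand were 4.69 times as high and gave 39.1 CPM in controls and 44.5 CPM in knockouts, a log2 difference of 0.18 (edgeR adjusted p = 0.0584).

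Tomm34 and Tomm6os share the letters and not the complex. Tomm34 (chromosome 2, 164053540 to 164071169, minus strand) binds chaperones that carry precursors in the cytosol, and stood at 26.1, 24.3, 20.7 and 21.6 CPM in controls and 43.3, 44.96, 39.3 and 38.7 CPM in knockouts. Every knockout lay above every control, and the log2 fold change was 0.84 ± 0.10 (edgeR adjusted p = 0.000544), the smallest p of any member. Tomm6os, which met the filter through its level in knockouts, had 0.423, 0.783, 0.316 and 0.379 CPM in controls and 0.831, 1.09, 1.30 and 1.43 CPM in knockouts. Of its strand-resolved reads 95.4% lay on the strand of Tomm6. On its own strand it had 25 reads in the 4 controls and 183 in the 4 knockouts.

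Tomm20l, a relative of Tomm20, did not reach the filter. It had 0, 0, 0 and 1 reads in controls 1 to 4 and 11, 9, 8 and 11 reads in knockouts 1 to 4. This is 1 against 39 reads in all, a ratio of 37.1 relative to library size with an exact 95% interval of 6.27 to 1500 that covers counting error only. On its own strand it had 1 read in controls and 32 in knockouts, while the opposite strand held 46 and 47. It is described by these values alone, since it stayed under the filter and nearly all its reads were in knockouts. Its exons overlap those of Timm9 over 49 bases on the other strand.

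The SAM complex, which folds barrel proteins into the outer membrane, had its core gene lower and 1 metaxin gene higher. Mtx1 (chromosome 3, 89209081 to 89227088, minus strand), which encodes a metaxin on the cytosolic face of the complex, was at 26.7, 27.9, 25.5 and 22.96 CPM in controls and 50.9, 60.4, 58.5 and 39.1 CPM in knockouts. The lowest knockout lay above the highest control, the mean was 203% of control and the log2 fold change was 1.02 ± 0.14 (edgeR adjusted p = 0.000969). Its exons overlap Thbs3 on the opposite strand, and on its own strand the log2 fold change was 1.06. Samm50, the barrel at the centre of the complex, was at 379, 361, 294 and 307 CPM in controls and 207, 290.2, 265 and 258 CPM in knockouts. All knockouts were lower, the highest at 290.2 and the lowest control at 293.6 CPM (log2 fold change −0.39 ± 0.13, edgeR adjusted p = 0.0408). In edgeR this call fell away without control 1 (adjusted p = 0.0775) or 2 (0.0961), without knockout 1 (0.0909), 3 (0.0811) or 4 (0.0679), and with the term for sex-linked transcripts (0.0502). The other metaxins, Mtx2 (log2 fold change −0.01 ± 0.12) and Mtx3 (0.16 ± 0.12), did not pass.

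In the intermembrane space, small TIM chaperones carry hydrophobic precursors between the membranes, and Chchd4 with the oxidase Gfer forms the disulfide relay. None of the 7 genes tested there was called lower, with log2 fold changes from −0.21 for Timm8b to 0.31 for Timm9. Timm9 was at 18.5, 14.7, 14.6 and 15.3 CPM in controls and 20.6, 19.3, 18.3 and 20.1 CPM in knockouts, with knockout 3 just below control 1 (0.31 ± 0.10, edgeR adjusted p = 0.0371). This call was lost in edgeR without control 2 (adjusted p = 0.116), 3 (0.091) or 4 (0.0967), without knockout 1 (0.0895), 2 (0.0632), 3 (0.0565) or 4 (0.0727), with 2 other scalings (RLE, 0.0642, and upper quartile, 0.0517), without a filter (0.0602), with strand-resolved counts (0.0532) and in DESeq2 (0.0618). On the strand opposite to Timm9, which is that of Tomm20l, reads numbered 0 in each control and 8, 9, 2 and 5 in knockouts 1 to 4. Timm10, the partner of Timm9, was at 51.5 ± 4.06 CPM in controls and 47.05 ± 3.48 CPM in knockouts (SD, n = 4) and did not pass. Timm8a1, Timm8b and Timm13, which form the other set of small TIMs, had log2 fold changes of −0.16 ± 0.21, −0.21 ± 0.11 and −0.09 ± 0.09. Chchd4 was at 34.8, 35.7, 34.2 and 35.2 CPM in controls and 36.9, 34.02, 35.1 and 38.5 CPM in knockouts (0.05 ± 0.07), and Gfer was at 16.05 ± 0.973 and 14.5 ± 3.37 CPM. Gfer had the lowest p of any member for a difference between the libraries with Y-linked transcripts (log2 fold change −0.48, edgeR adjusted p = 0.0852) and those with Xist (0.11, 0.696), and that difference was not called (edgeR adjusted p = 0.812). Timm8a2 had 2 reads in all controls and 0 in all knockouts, which is too few for a comparison.

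For the inner membrane, the carrier translocase gene Timm22 was lower. It was at 32.7, 35.6, 32.3 and 29.8 CPM in controls and 23.03, 18.7, 25.4 and 23.6 CPM in knockouts, with no overlap (log2 fold change −0.52 ± 0.11, edgeR adjusted p = 0.00551). Timm10b, the small TIM bound to that translocase, was at 22.96, 24.1, 24.3 and 25.2 CPM in controls and 29.1, 28.7, 28.6 and 24.4 CPM in knockouts, where 3 knockouts lay above all controls and knockout 4 among them (0.20 ± 0.09, edgeR adjusted p = 0.0965). It was called higher without knockout 4 (edgeR adjusted p = 0.0344). Oxa1l, which inserts proteins into the inner membrane from the matrix side, did not pass (−0.20 ± 0.10, edgeR adjusted p = 0.144).

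In the TIM23 complex the receptor side and the channel were lower, and neither form of Timm17 was called. Timm21 (chromosome 18, 84946191 to 84951524, minus strand), which couples TIM23 to the TOM complex and to the respiratory chain, was at 38.7, 37.9, 33.9 and 31.2 CPM in controls and 15.6, 11.2, 12.9 and 21.6 CPM in knockouts. The knockout mean was 43.2% of the control mean, the lowest share among the tested members, with no overlap (log2 fold change −1.21 ± 0.19, edgeR adjusted p = 0.00161). Timm50, the receptor that takes presequences as they leave the outer membrane, was at 59.2, 60.4, 57.1 and 50.9 CPM in controls and 40.01, 33.2, 29.1 and 48.3 CPM in knockouts. Knockout 4 came closest to the controls without reaching them, and the log2 fold change was −0.60 ± 0.15 (edgeR adjusted p = 0.0129). In the libraries with Y-linked transcripts the log2 fold change of Timm50 was −0.93 and in those with Xist −0.32 (edgeR adjusted p = 0.00916 and 0.292), and for Timm21 these were −1.59 and −0.91 (0.00427 and 0.116). The difference between the 2 kinds of library was not called for any member.

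Timm23, the channel itself, was at 119.9, 116, 103 and 103 CPM in controls and 78.8, 95.7, 89.8 and 93.02 CPM in knockouts. All knockouts lay below all controls, with a log2 fold change of −0.31 ± 0.09 and an edgeR adjusted p of 0.0277. It missed the threshold in edgeR when control 1 (adjusted p = 0.0522), control 2 (0.0693), knockout 1 (0.0702) or knockout 3 (0.0687) was left out. Timm17a and Timm17b, alternative subunits that line the channel, were at 139 ± 11.2 and 25.8 ± 1.95 CPM in controls and at 134 ± 13.8 and 25.9 ± 2.44 CPM in knockouts (SD, n = 4). Their log2 fold changes were −0.05 ± 0.10 and 0.00 ± 0.10.

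Of the import motor, which pulls chains into the matrix, 3 genes are members, and all 3 were lower. Among the motor genes on the partner list, Dnajc15 was lower (−0.76 ± 0.08) and Hspa9 (0.29 ± 0.12), Pam16 (−0.19 ± 0.11) and Dnajc19 (0.05 ± 0.13) did not pass. Timm44 (chromosome 8, 4259731 to 4275913, minus strand), the scaffold that holds the motor at the channel, was at 137, 134, 122 and 121 CPM in controls and 71.3, 75.9, 79.8 and 102 CPM in knockouts. Knockout 4 was the closest to the controls, and the groups did not overlap (log2 fold change −0.64 ± 0.12, edgeR adjusted p = 0.00317). Grpel1 (chromosome 5, 36464998 to 36474080, plus strand), the nucleotide exchange factor of the motor chaperone, was at 125, 133, 119 and 118 CPM in controls and 71.8, 88.8, 80.6 and 95.1 CPM in knockouts. The knockout mean was 67.8% of control (−0.56 ± 0.10, edgeR adjusted p = 0.00287). Grpel2, its less abundant relative, was at 25.2, 22.9, 22.6 and 20.4 CPM in controls and 18.2, 16.3, 14.9 and 18.2 CPM in knockouts, and again every knockout lay below every control (−0.43 ± 0.10, edgeR adjusted p = 0.0109).

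Of the presequence peptidases, both subunits of the matrix processing peptidase and the intermediate peptidase were lower. Pmpca, the subunit that recognises precursors, was at 175, 179, 150.4 and 145 CPM in controls and 103, 121, 116 and 112 CPM in knockouts, a log2 difference of −0.52 ± 0.10 (edgeR adjusted p = 0.00346). Pmpcb, the catalytic subunit, was at 211, 227, 193 and 185 CPM in controls and 146, 163, 174 and 175 CPM in knockouts (−0.31 ± 0.10, edgeR adjusted p = 0.0355). Groups did not overlap for either gene. Pmpcb missed the threshold in edgeR without control 1 (adjusted p = 0.0586) or 2 (0.0916), without knockout 1 (0.0891), 2 (0.067) or 3 (0.0609), and with scaling by library size alone (0.0532). Mipep, which removes a further short peptide from some precursors, was at 111, 98.96, 76.1 and 76.4 CPM in controls and 58.2, 61.5, 66.8 and 69.5 CPM in knockouts (−0.50 ± 0.14, edgeR adjusted p = 0.0178). Controls 1 and 2 stood apart from controls 3 and 4 for Mipep, and they also lay above controls 3 and 4 for every other member called lower. The inner membrane peptidase genes Immp1l (0.08 ± 0.11) and Immp2l (−0.31 ± 0.17, edgeR adjusted p = 0.178) did not pass.

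**Figure D2:**
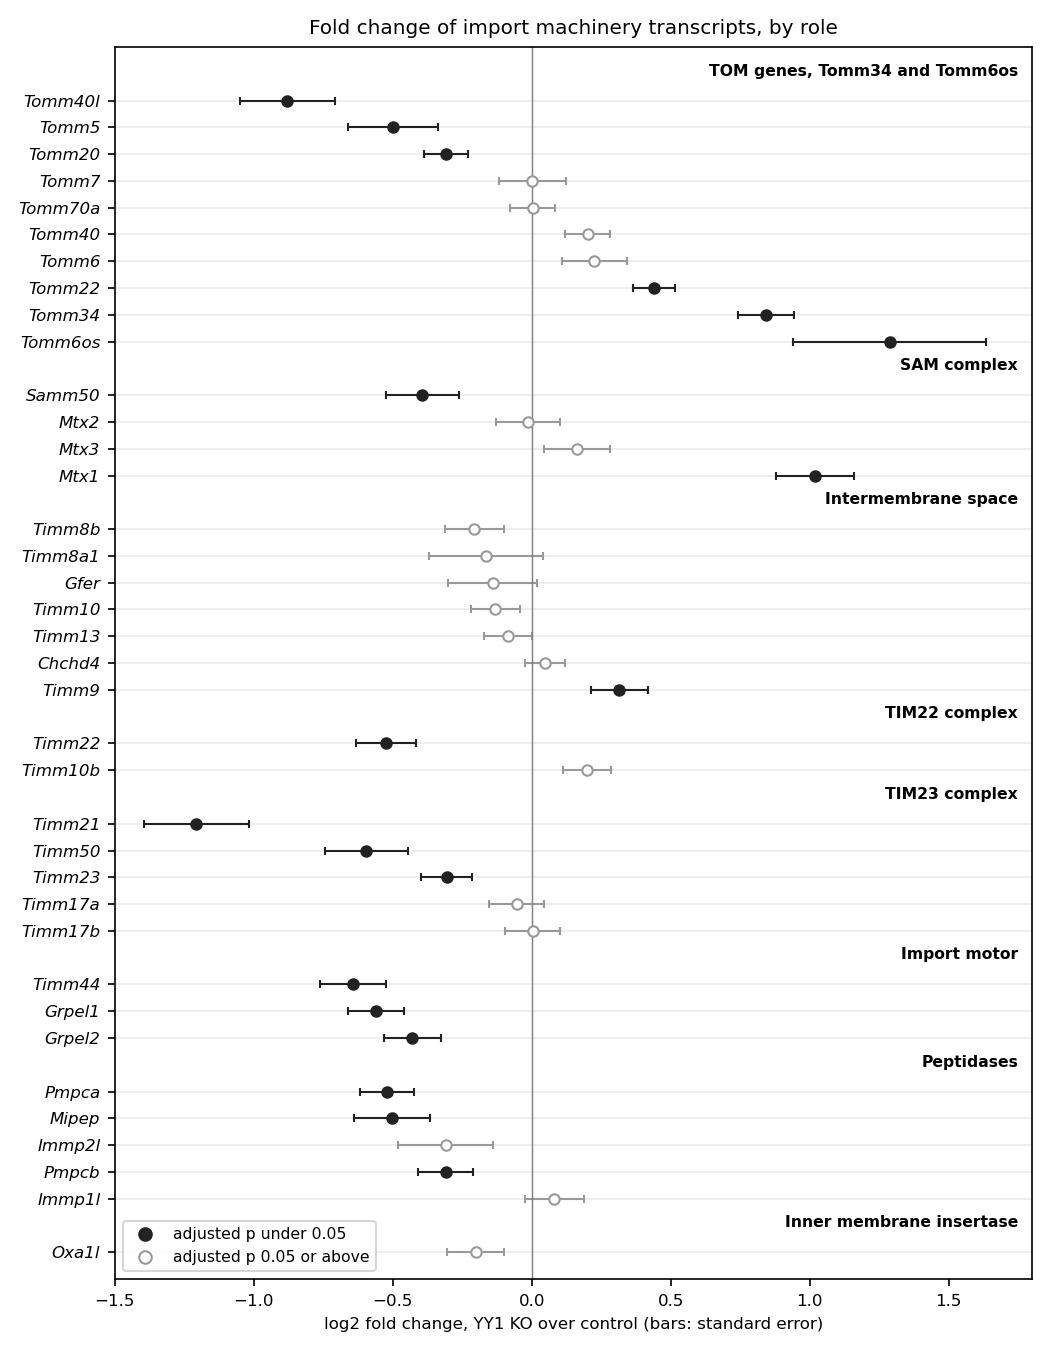
Log2 fold change of each tested import gene in YY1 KO over control hearts (x axis, bars are standard errors from edgeR, n = 4 per group), grouped by step of import; filled points passed an adjusted p of 0.05 and open points did not. The filled points run from −1.21 for Timm21 to 1.29 for Tomm6os, which met the filter through its level in knockouts, and Timm44, Grpel1 and Grpel2 are all filled and negative.

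Because members act in fixed pairs or as alternative forms, the ratio of counts within each library was compared for 8 pairs by exact permutation (two-sided) of the group labels in all 70 ways, where the smallest possible p is 0.0286. The ratio of Tomm40 to Tomm40l was 1.18, 1.28, 1.44 and 1.26 in controls and 1.96, 3.50, 3.39 and 2.55 in knockouts. Every knockout was above every control, with a difference of 1.11 ± 0.21 (SE) in the log2 ratio (exact p = 0.0286, adjusted over the 8 pairs 0.0571). The ratio of Timm9 to Timm10 was 0.324, 0.283, 0.296 and 0.321 in controls and 0.456, 0.390, 0.426 and 0.400 in knockouts, also without overlap (log2 difference 0.45 ± 0.07, SE). The ratio of Mtx1 to Mtx3 was 1.05, 1.31, 1.06 and 1.12 in controls and 1.88, 2.85, 2.02 and 1.58 in knockouts, a log2 difference of 0.84 ± 0.19 (SE). The ratio of Pmpca to Pmpcb, subunits of one enzyme, was 0.827, 0.789, 0.778 and 0.786 in controls and 0.709, 0.740, 0.664 and 0.641 in knockouts, a log2 difference of −0.21 ± 0.05 (SE). Exons of Pmpca overlap those of Inpp5e on the opposite strand, which lowers its counts when strand is ignored. On their own strands Pmpca and Pmpcb averaged 205 and 199 CPM in controls and 146 and 161 CPM in knockouts. These 4 pairs all had the smallest exact p the design allows, 0.0286. After adjustment over 8 pairs each was at 0.0571, so that 0 pairs passed 0.05. The pairs were chosen with earlier results of these data known.

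The remaining pairs showed smaller or less even differences. For Immp1l over Immp2l the ratio was 3.93, 3.45, 3.59 and 4.41 in controls and 5.21, 6.01, 4.77 and 4.30 in knockouts, and knockout 4 lay within the control range (log2 difference 0.40 ± 0.13, SE, exact p = 0.0571, adjusted 0.0914). The ratio of Grpel1 to Grpel2 differed by −0.14 ± 0.12 (SE) on the log2 scale (exact p = 0.371), that of Timm17a to Timm17b by −0.06 ± 0.08 (exact p = 0.457) and that of Timm8a1 to Timm8b by 0.04 ± 0.21 (exact p = 0.857). A p above the threshold does not show that these ratios were equal between the groups.

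**Figure D3:**
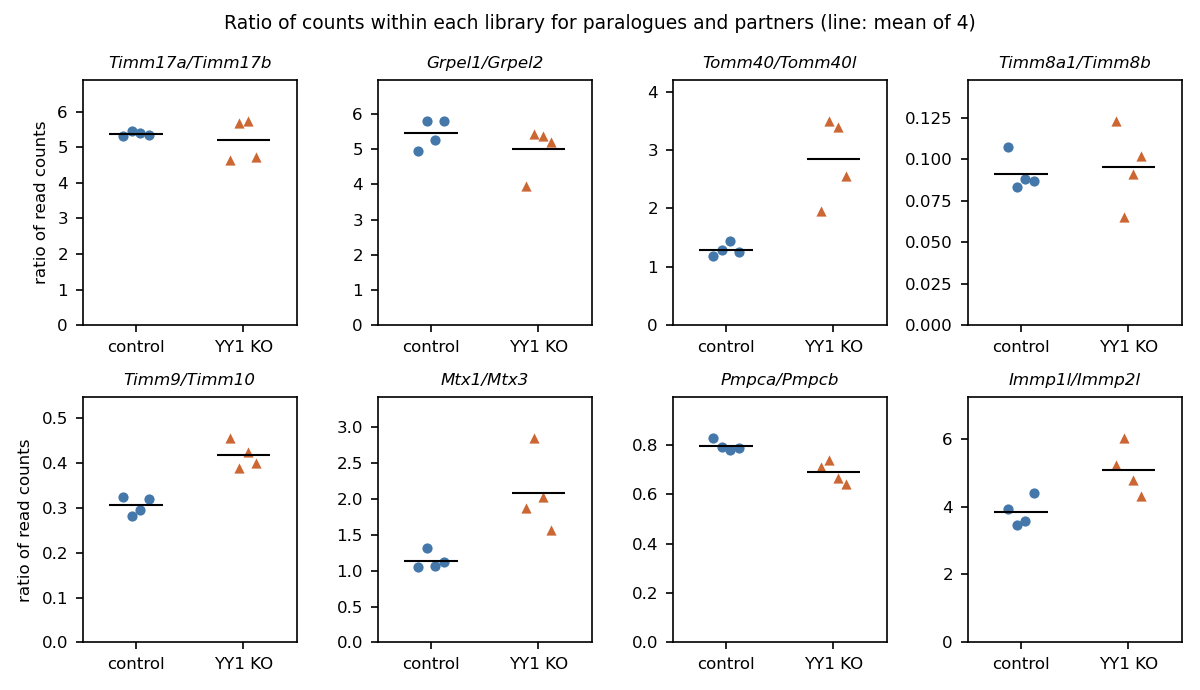
Ratio of read counts of the first to the second gene of each pair (y axis, from 0) in the 4 control and 4 YY1 KO libraries, with a line at the mean. Knockouts lie above all controls for Tomm40/Tomm40l, Timm9/Timm10 and Mtx1/Mtx3 and below them for Pmpca/Pmpcb, each with an exact p of 0.0286.

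Levels were compared between members per kilobase of annotated exon, from reads on the gene's own strand. The length was that of all annotated exons of a gene joined, which can exceed the length of the transcripts made in heart. The SDs cover the spread of libraries and not this length, so the order of different genes is approximate. In controls the highest level per kilobase was that of Timm8b at 142 ± 13.5 CPM per kb, followed by Tomm5 at 85.7 ± 7.13 CPM per kb (SD, n = 4). Timm10 (61.9 ± 4.84) and Timm23 (61.8 ± 4.90 CPM per kb) were next and did not differ beyond their spread. The pore gene Tomm40 was at 20.2 ± 1.34 CPM per kb and Tomm40l at 19.6 ± 2.10 CPM per kb in controls, a gap within their spread, whereas in knockouts they were at 23.3 ± 1.39 and 10.7 ± 2.63 CPM per kb. In controls Tomm22 (45.7 ± 1.38 CPM per kb) was above Tomm20 (15.5 ± 0.629), and Grpel1 (35.5 ± 2.08 CPM per kb) above Grpel2 (3.40 ± 0.303). Of the tested coding members the lowest were Mtx3 at 2.88 ± 0.305, Grpel2, Timm9 at 3.92 ± 0.422 and Timm8a1 at 3.93 ± 0.796 CPM per kb, of which Timm9 and Timm8a1 did not differ beyond their spread. Mtx1 moved up this order, from 6.42 ± 0.661 CPM per kb in controls to 13.4 ± 2.53 CPM per kb in knockouts, and Timm21 moved down, from 9.44 ± 0.996 to 4.08 ± 1.15 CPM per kb.

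**Figure D4:**
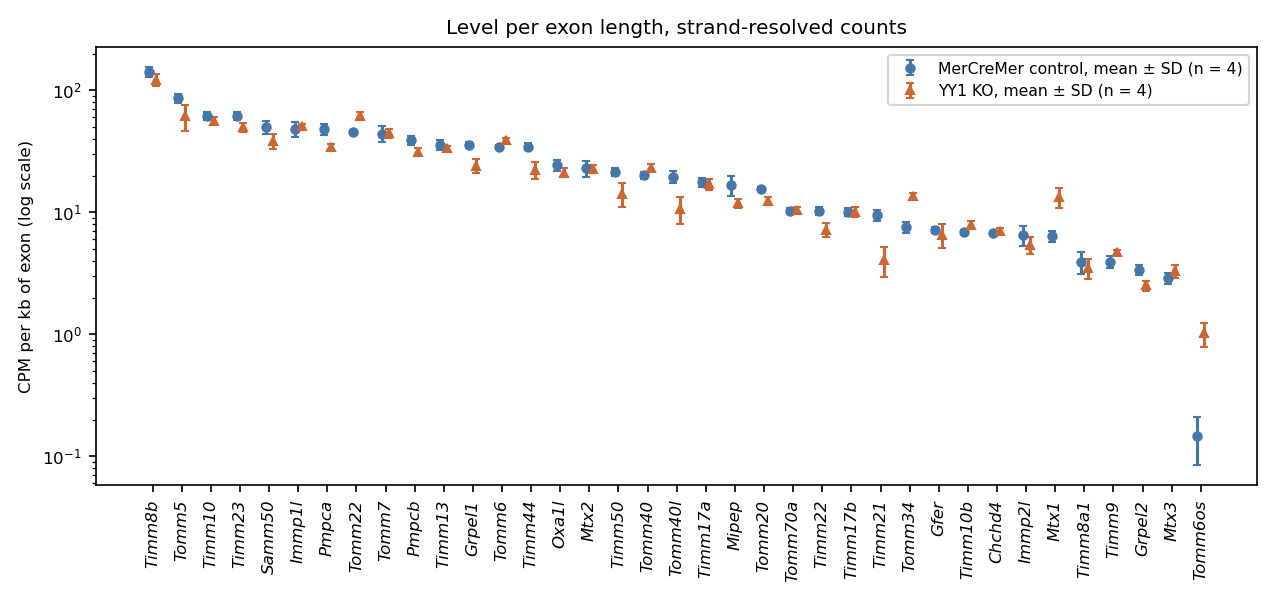
Level of each tested import gene per kilobase of annotated exon (y axis, CPM per kb on a log scale, own-strand reads) as mean ± SD of 4 libraries per group, ordered by the control mean. Timm8b is highest at 142 CPM per kb in controls and the antisense transcript Tomm6os lowest, and Tomm40 and Tomm40l stand side by side in controls and apart in knockouts.

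Genes that work beside the members were read from lists of their own. Of 14 import partners (motor chaperone, its J-proteins and other helpers) 2 were lower (14.3%, beside 17.3% of all tested genes) and 2 higher (14.3%, beside 21.6%), with a median log2 fold change of −0.01. The lower count was 1 without control 2 or knockout 1, 2 or 3 and 3 without knockout 4. Dnlz, which keeps the motor chaperone soluble, rose from 36.2 ± 2.80 to 73.9 ± 5.37 CPM (1.03 ± 0.09, edgeR adjusted p = 0.000196). Cox18, an inner membrane insertase related to Oxa1l, rose from 9.11 ± 0.671 to 17.7 ± 2.63 CPM (0.96 ± 0.13, edgeR adjusted p = 0.000886). Dnajc15, a J-protein of the motor, fell from 51.3 ± 1.95 to 30.3 ± 2.38 CPM (−0.76 ± 0.08, edgeR adjusted p = 0.000363). Atad1, which extracts misplaced proteins from the outer membrane, was lower as well (−0.36 ± 0.10, edgeR adjusted p = 0.0242), a call lost in edgeR without control 2 (0.0616) and without knockout 1 (0.0651), 2 (0.0517) or 3 (0.0514). The motor chaperone Hspa9 and the other motor genes Pam16 and Dnajc19, given with the motor above, were named after their values were seen.

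Of 17 genes for mitochondrial chaperones, proteases and prohibitins, 7 were lower (41.2%, beside 17.3% of all tested genes) and 1 higher (5.88%, beside 21.6%). Their median log2 fold change was −0.14, and 6 to 8 were lower with any 1 library left out. The chaperonin genes Hspd1 (−0.72 ± 0.16) and Hspe1 (−0.65 ± 0.14), which share a promoter region and fold imported proteins, were both lower (edgeR adjusted p = 0.00803 and 0.00584). The disaggregase gene Clpb (−0.78 ± 0.13) and the membrane protease gene Afg3l1 (−0.60 ± 0.09) were lower too (edgeR adjusted p = 0.00214 and 0.00162). Lonp1, the main quality-control protease of the matrix, rose from 283 ± 9.97 to 468 ± 51.5 CPM (0.73 ± 0.10, edgeR adjusted p = 0.00109). Without control 1 a second gene of this list was higher. Of 8 members of MICOS, the complex that shapes the inner membrane and contacts SAM, 1 was lower (12.5%, beside 17.3% of all tested genes) and 1 higher (12.5%, beside 21.6%). These were Apool (−0.64 ± 0.09, edgeR adjusted p = 0.000891) and Chchd6 (0.52 ± 0.11, edgeR adjusted p = 0.00676), in that order. The other 6 were not called, and the median of all 8 was −0.14. Counts in MICOS turned on single libraries and scalings, with 2 lower without knockout 3 and 2 higher without control 3 or knockout 1.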

How the data were processed

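The deposited tables, 1 per heart, hold read counts per gene symbol made by the authors. The submitters' processing notes name Trimmomatic, STAR and the mm10 build. Tool versions and the annotation counted are not given in the sources used. Each table gives counts irrespective of strand, which were used, and counts for each strand (2.66 to 5.31% of the reads resolved by strand were on the other strand). Reads assigned to no gene (33.0 to 38.9% of reads) were left out. Reads that fall in more than 1 gene or map to several places are listed apart and not counted per gene, which lowers overlapping genes and close copies.

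Genes were kept with filterByExpr (minimum count 10, equal to 0.648 CPM, in 4 libraries), which left 13506. YY1 KO was tested against control in edgeR 4.0.16 (quasi-likelihood F test, robust, after TMM scaling, with group as the single term, Benjamini-Hochberg adjustment over all genes, threshold 0.05). Standard errors were taken from the fold change and its F value. Ratios used counts with 0.5 added. Libraries within a group differed by more than sampling noise (14.5 to 96.1 in chi-square over its degrees of freedom). The labels number separate mice, and nothing more is said of how they were kept. Positions and exon lengths are from GENCODE M21 (mm10, GRCm38), matched for 24001 symbols (98.3%), and for all 39 members. The test was tried on simulated counts for this comparison (13404 genes), which recovered 93% of seeded 4-fold changes and 70% of seeded 2-fold ones, with 5.78% false calls. Recovery of smaller changes was not simulated. The simulation seeded 100 changes of each size, far fewer than the 2337 lower and 2911 higher genes called in the data. Its rates therefore need not hold where so many genes differ.

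The members, roles, pairs and lists were chosen with earlier results of these data known. Any tested member could be named with its values, as could up to 5 called genes with the smallest p of each other list. The alternatives were RLE, upper quartile and library size scaling, DESeq2 1.42.0, limma-voom (limma 3.58.1), no filter and a stricter one, stranded counts, a block for the replicate number, a term for sex-linked transcripts, libraries with Y-linked transcripts only and leaving out each library. The fit in libraries with Xist only was added after the data were seen. The work ran in R 4.3.3 and Python 3.11.15, with figures from matplotlib 3.10.9.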

Additional observations from a re-analysis of the deposited data

Results flagged for a closer look

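In 5 of 74 groups of 4 libraries examined, 1 library stood far from the other 3, where chance gives about 1 in 20, and all 5 were knockout groups of members that were not called. Timm10b was at 24.38 CPM in knockout 4, against 28.58 to 29.14 CPM in the other knockouts. Timm13 was at 42.38 CPM in knockout 2, against 46.32 to 46.78. Timm17a was at 154.6 CPM in knockout 2, against 125.4 to 128.2. Timm17b was at 22.22 CPM in knockout 3, against 26.95 to 27.23. Timm8b was at 44.58 CPM in knockout 1, against 54.87 to 56.61.

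Reads on the strand opposite to Tomm34, which the comparisons did not use, averaged 1.159 CPM in knockouts and 0.5672 CPM in controls. They numbered 17, 14, 22 and 20 in knockouts 1 to 4 and 10, 11, 10 and 4 in controls 1 to 4, so every knockout lay above every control. Reads on the strand of Tomm34 itself numbered 1345 in the 4 controls and 2543 in the 4 knockouts, so the opposite reads came to 2.6% of them in controls and 2.87% in knockouts, where 2.66 to 5.31% of the strand-resolved reads of whole libraries were on the other strand. These counts are low, and the difference was not tested.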

How the results depend on the processing

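All 19 called members, Tomm6os among them, kept the direction of their fold change in each of the 20 alternatives that tested them. The members were called in these same libraries, and each alternative reuses all or some of them, so a kept direction adds no support. Tomm6os in addition met the filter through its level in knockouts. Of the 19 calls, 18 were kept with RLE or upper quartile scaling, DESeq2, no filter, the stricter filter, stranded counts and the term for sex-linked transcripts, 17 with library size alone (where Tomm40 was gained) and 19 in limma-voom. The median over members, with Tomm6os included where tested, ran from −0.21 to −0.07.

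In the libraries with Y-linked transcripts, 8 members were lower and 2 higher, 1730 genes were higher in all, 1 import partner was lower and 0 MICOS genes were higher. In the libraries with Xist, 0 genes of any list were called lower or higher, and Yy1 had a log2 fold change of −0.76 (edgeR adjusted p = 0.116). These fits have 2 libraries per group, and the cause of the lost calls was not tested further. MICOS had 2 lower genes in DESeq2 and 2 higher in DESeq2 and with upper quartile or library size scaling.

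Leaving out 1 library gave 1668 to 2439 lower and 2192 to 2905 higher genes in all. Among members it gave 10 to 14 lower and 3 to 5 higher, Tomm6os counted (3 higher without control 4 or knockout 3). It gave 1 to 3 lower partners (1 without control 2 or knockout 1, 2 or 3). Of the chaperones, proteases and prohibitins 6 to 8 were lower and 1 to 2 higher. Of MICOS genes 1 to 2 were lower and 1 to 2 higher.

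Same-numbered mice did not deviate together (correlations of −0.464 to 0.337), and not every library correlated best with its own number. Same-numbered mice of both groups did share the kind of sex-linked transcripts. The labels do not say what else they shared. With the replicate number as a block 9 members were lower and 4 higher, Tomm6os counted, and 1 partner was lower. The counts over all genes with this block are not given here, so these counts have no background beside them. Counts limit Tomm6os, Tomm20l and Timm8a2.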
